A study of Mus musculus with 2 samples.

Results

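Insulin-like growth factor (IGF) signalling was described here through 10 genes, taken from the 43346 genes of the tables by matching gene identifiers to symbols in the mouse GENCODE annotation. They were the ligand gene Igf1, the receptor genes Igf1r and Insr, the receptor substrate genes Irs1 and Irs2, and the binding protein genes Igfbp2, Igfbp3, Igfbp4, Igfbp5 and Igfbp7. The rule names them by symbol and sets no threshold on a measured value, although the list was drawn up with earlier results of these data known. All 10 identifiers matched 1 row each. Total RNA came from the midbrain of healthy B6NCrl mouse embryos at embryonic day 11.5, and the labels give 1 group without treatment, mutation or control condition. The tissue of 109 embryos of both sexes was pooled for replicate 1 and that of 88 for replicate 2, so spread between single embryos was not measured. Input per library was 10 ng of RNA above 200 nt, to which synthetic ERCC spike-in RNAs had been added.

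In IGF signalling, a secreted ligand (IGF1 or IGF2) binds the receptor tyrosine kinase IGF1R or the closely related insulin receptor. The active receptor phosphorylates the docking proteins IRS1 and IRS2, which recruit PI3 kinase, and SHC and GRB2 link it to RAS and MAP kinase. Binding proteins hold most extracellular IGF, carry it, and can block or prolong its access to the receptor. In the developing brain the pathway is known for its role in growth, survival and proliferation of neural progenitors.

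Levels are given as TPM, a relative abundance corrected for transcript length, so that genes can be compared with each other within a library. The gene tables held 38884247 counts on genes in replicate 1 and 45975100 in replicate 2. Of the midbrain marker genes listed, 5 of 5 reached 1 TPM in both libraries, with Otx2 at 169.43 and 171.27 TPM, and 0 of 4 hindbrain Hox genes did. Markers of neural progenitors (5 of 5), neurons (4 of 4), mesenchyme and meninges (7 of 7), endothelium (6 of 6), mural cells (4 of 5), microglia and macrophages (5 of 5) and erythroid cells (5 of 5) also reached 1 TPM. Marker RNA of all these kinds of cells was thus present, and the share of each kind in the levels of the IGF genes was not tested. In such bulk RNA, fewer cells of a type and less RNA per cell cannot be told apart.

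All 10 genes reached 1 TPM in both libraries, against 32.1% of all genes in the tables. Mean levels ran from 4.275 TPM for Irs1 to 389 TPM for Igfbp2. The median over the 10 genes was 16.8 TPM, close to the 16.4 TPM of all genes that reached 1 TPM in both, and 5 of the 10 lay above that median. In falling order of mean level the genes were Igfbp2, Igfbp4, Insr, Igfbp7, Igfbp5, Igf1r, Igf1, Irs2, Igfbp3 and Irs1. This order is over all transcripts, and the place of Insr depends on that. Over protein-coding transcripts only, the mean of Insr was 4.24 TPM, just below the 4.275 TPM of Irs1 and below 16.4 TPM. Insr also has a non-coding model that shares exons with the coding one. Reads assigned to that model are left out of the 4.24 TPM, so this low place depends on how reads were split. The tables give an interval for each TPM value, and no source used here states its level. It covers the uncertainty of counting and read assignment within 1 library only. Neighbours in the order were separated, meaning that these intervals did not overlap in either library and had the same order in both, in 4 of 9 cases. The separated steps were Igfbp2 to Igfbp4, Igfbp4 to Insr, Igfbp5 to Igf1r and Igf1 to Irs2. Within the run Insr, Igfbp7, Igfbp5, within the pair Igf1r and Igf1, and within the run Irs2, Igfbp3, Irs1, each gene overlapped its neighbour in at least 1 library. Igfbp5 and Igf1, which are not neighbours in the order, also overlapped in replicate 1 (16.8 to 18.1 and 14.4 to 17.4 TPM). A separated step between neighbours thus does not part all genes above it from all below. Of all 45 pairs that the 10 genes form, 39 were separated in this sense. An exact test over 2 libraries cannot give a two-sided p below 0.5, so no p is given for pairs.

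**Figure D1:**
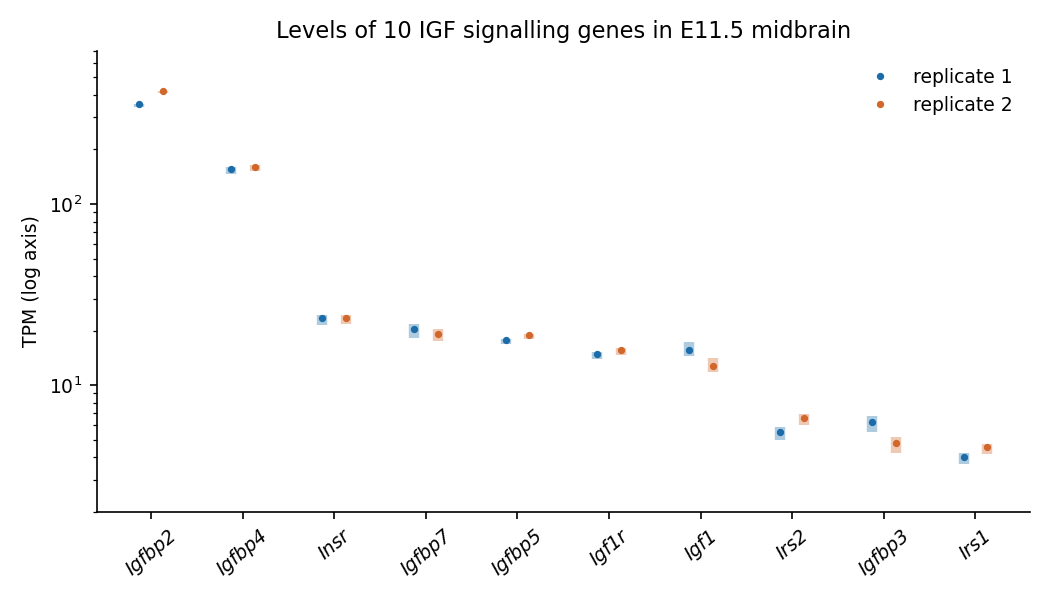
Level of each gene in TPM (log axis), ordered by mean. Points are the deposited TPM of replicate 1 (blue) and replicate 2 (orange) and shaded bars the deposited intervals; Igfbp2 (356.84 and 421.33 TPM) and Igfbp4 (155.8 and 159.64 TPM) stand above the other 8 genes, which lie between 4.01 and 23.5 TPM.

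Igf1, the gene of the ligand IGF1 (ENSMUSG00000020053, mm10 chr10:87858265-87937042, plus strand), had 15.64 TPM in replicate 1 and 12.72 TPM in replicate 2. The mean was 14.2 ± 2.06 TPM (SD, n = 2), from 2180 and 2194 counts. The interval of replicate 1 (14.4 to 17.4 TPM) lay above that of replicate 2 (11.8 to 14.1 TPM). Igf1 was thus a gene of middle rank here, at percentile 46.4 of the genes that reached 1 TPM in both libraries.

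Mouse Igf1 transcripts begin in one of a pair of alternative leader exons, called exon 1 (class 1) and exon 2 (class 2), which encode different starts of the signal peptide. Near the 3′ end a 52-base exon is either skipped, which gives the Ea form of the precursor, or included, which gives the Eb form. The sequences that set these forms apart are shown because the transcript values below turn on them. They are from GENCODE M21 transcripts on the plus strand of mm10, 5′ to 3′. Capitals mark the coding part of exon 1 (chr10:87859350-87859412, 63 bases), the coding part of exon 2 (chr10:87861371-87861385, 15 bases) and the 52-base exon (chr10:87915298-87915349), and lower case marks the adjoining shared exons.
Igf1 exon 1: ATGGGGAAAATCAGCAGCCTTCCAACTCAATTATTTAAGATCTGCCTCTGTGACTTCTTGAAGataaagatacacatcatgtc
Igf1 exon 2: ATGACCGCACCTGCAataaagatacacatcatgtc
Igf1 52-base exon: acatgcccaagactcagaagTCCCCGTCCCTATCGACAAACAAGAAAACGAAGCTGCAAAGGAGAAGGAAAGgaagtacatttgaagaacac

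Class 1 transcripts led Igf1 in both libraries. The 3 class 1 models together took 81.97% and 83.01% of the TPM of Igf1 (82.5 ± 0.735%, n = 2). The 5 class 2 models took 18.04% and 17.0%. By expected counts (estimated reads per transcript) the class 1 share was larger, at 96.5% and 97.3%. Counts are not corrected for length, and the longest model (7052 nt) is of class 1, so it weighs more on that scale. Behind the class 2 share stood only 75.45 and 60.24 counts, so it rested on few reads.

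The long class 1 model that skips the 52-base exon, Igf1-202 (7052 nt), was the leading transcript in both libraries, with 69.49% and 73.16% of the gene's TPM and 2022.32 and 2071.34 counts. All models that skip that exon (Ea) took 72.65% and 74.57% of TPM. Models that include it (Eb) took 23.77% and 22.47%, from 108.31 and 88.93 counts. Igf1-201, which ends in a longer form of the same exon, took the remaining 3.59% and 2.97%. The short Igf1-206 model (651 nt), of class 2 and Eb type, shows how wide the error of these shares is. It was assigned 11.29% and 13.24% of TPM from 26.08 and 29.75 counts, with intervals from 0.000214 to 3.19 TPM and from 0.0411 to 2.84 TPM. The order class 1 over class 2 and Ea over Eb was the same in both libraries, by TPM and by counts.

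Igf1r encodes the main IGF receptor, a tyrosine kinase of the cell surface (ENSMUSG00000005533, mm10 chr7:67952827-68233668, plus strand). It had 14.91 TPM in replicate 1 and 15.68 TPM in replicate 2, a mean of 15.3 ± 0.544 TPM (n = 2), from 1752 and 2204 counts. The intervals of the libraries overlapped (13.9 to 15.3 and 14.8 to 16.05 TPM). The tables held a single Igf1r transcript, Igf1r-201, with a model of 4489 nt. In the later reference annotation the same transcript is 11409 nt long, so reads from the part added later could not be counted on it.

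Insr encodes the insulin receptor, which also binds IGF2 (ENSMUSG00000005534, mm10 chr8:3122061-3279617, minus strand). Its gene level was 23.38 and 23.5 TPM, a mean of 23.4 ± 0.0849 TPM (n = 2), from 1915 and 2160 counts. That level came mostly from a short model that does not encode the receptor. The coding transcript Insr-201 (9355 nt, 21 exons) had 4.52 and 3.96 TPM. Insr-202 (1675 nt), annotated as a retained intron, had 18.86 and 19.55 TPM. Of the TPM of Insr, Insr-202 therefore took 80.68% and 83.16%, although it took only 41.6% and 45.7% of the counts. Both libraries showed the same order of the transcripts on each scale.

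Insr-202 holds the first 3 exons of the gene and then 278 bases of intron 3 (chr8:3211101-3211378, minus strand). This stretch is the part that sets the model apart from Insr-201, which is why it is printed, after 20 bases of exon 3 in lower case. Capitals mark the intron bases, which begin with the GTAAGT of the exon's 5′ splice site (GENCODE M21, mm10).
Insr-202: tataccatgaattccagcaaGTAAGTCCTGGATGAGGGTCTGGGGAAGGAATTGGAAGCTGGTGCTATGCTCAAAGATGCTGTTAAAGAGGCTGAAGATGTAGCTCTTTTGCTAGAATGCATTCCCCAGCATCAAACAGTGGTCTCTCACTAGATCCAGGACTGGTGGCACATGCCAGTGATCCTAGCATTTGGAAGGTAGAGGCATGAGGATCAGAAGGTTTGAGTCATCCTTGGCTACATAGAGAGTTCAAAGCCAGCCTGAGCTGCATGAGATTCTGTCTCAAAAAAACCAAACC

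None of the 254 windows of 25 bases in this stretch occurred in a reference transcript of another gene on either strand. At 16 bases, 18 of 124 windows in the first 139 bases did, and 69 of 124 in the last 139. Expected counts of Insr were whole numbers in both libraries, with a posterior SD of 0, so the tables assigned none of its reads partly to another gene. By its letters the last part of the stretch resembles a B1 element, a short repeat dispersed through rodent genomes, although no repeat annotation was used here. Reads from other genomic copies were not examined, and their part in the level of Insr-202, and so in the order of Igf1r and Insr over all transcripts, was not tested. The 36-base exon that separates the A and B forms of the receptor (chr8:3181702-3181737) lies in neither Insr model of the tables, so the use of that exon was not analysed here.

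The order of the receptors depended on which transcripts were counted. Over all transcripts, Igf1r was at 0.639 and 0.669 times the level of Insr, and the intervals were separated in both libraries. Restricted to protein-coding transcripts, Igf1r was 3.25 and 3.89 times as high as Insr. This restriction drops the 795.76 and 986.49 counts assigned to Insr-202, also any in exons that it shares with Insr-201. Those reads were not assigned anew, so the size of this fold depends on how reads were split between the models. All folds between genes here are on the scale of TPM + 0.1. The restriction to coding transcripts was chosen after the data were seen. Igf1r and its ligand gene Igf1 had no stable order, with folds of 0.954 in replicate 1, where the intervals overlapped, and 1.23 in replicate 2, where they did not.

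**Figure D2:**
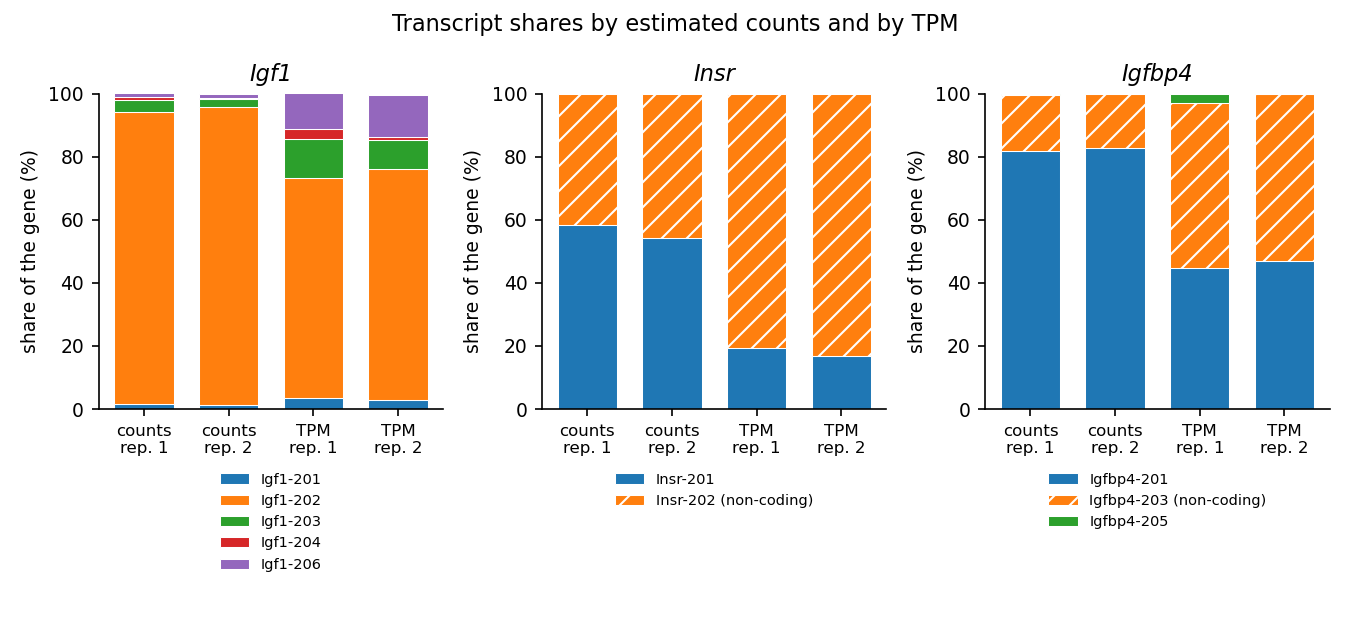
Share of each transcript in its gene (%), by expected counts and by TPM in each replicate, for Igf1, Insr and Igfbp4. Colours are transcripts with at least 1% in a bar and hatching marks non-coding models. Insr-202 and Igfbp4-203 take larger shares by TPM than by counts in both libraries, which follows from their short length.

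Irs1 and Irs2 encode the docking proteins that link the receptors to PI3 kinase. Irs1 (ENSMUSG00000055980, mm10 chr1:82233101-82291416, minus strand) had 4.01 and 4.54 TPM, a mean of 4.275 ± 0.375 TPM (n = 2). Irs2 (ENSMUSG00000038894, mm10 chr8:10984681-11008458, minus strand) had 5.53 and 6.62 TPM, a mean of 6.075 ± 0.771 TPM (n = 2). Both were low, with 971.75 and 1313.93 counts for Irs1 and 581 and 831.82 for Irs2. Irs2 exceeded Irs1 1.37-fold in replicate 1 and 1.45-fold in replicate 2, and the intervals were separated in both. These were the only members of the 10 with fractional counts, which arise when reads are shared with other rows of the table. The posterior SD of the Irs1 count was 16.4 and 17.9, so little of its level was uncertain for this reason. Each had 1 transcript in the tables, and the Irs2 model of 4024 nt is 6323 nt long in the later annotation.

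Binding protein RNAs were led by Igfbp2, a secreted binding protein that is widely made in the embryonic brain (ENSMUSG00000039323, mm10 chr1:72824503-72852474, plus strand). It had 356.84 TPM in replicate 1 and 421.33 TPM in replicate 2, a mean of 389 ± 45.6 TPM (n = 2), from 11504 and 16248 counts. Igfbp2 thus stood at percentile 97.6 of the genes that reached 1 TPM in both libraries. The intervals were 343 to 356 TPM and 408 to 420 TPM. They lie around the posterior mean TPM (349 and 414), which the tables give in a separate column, and the TPM printed here was just above the upper bound in each library. Its leading transcript, Igfbp2-201, took 98.9% of TPM in replicate 1 and 98.8% in replicate 2.

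Igfbp4, a binding protein that is inactivated when the protease PAPP-A cuts it, was second (ENSMUSG00000017493, mm10 chr11:99041244-99054392, plus strand). It had 155.8 and 159.64 TPM, a mean of 158 ± 2.72 TPM (n = 2), from 8502 and 10834 counts. Here too a non-coding model took a large part. The coding Igfbp4-201 (3831 nt) had 69.62 and 75.12 TPM, 44.68% and 47.05% of the gene. Igfbp4-203 (785 nt, annotated as a processed transcript) had 81.66 and 84.43 TPM, 52.42% and 52.88%. By counts the order was the other way round in both libraries, with 81.8% and 82.9% on Igfbp4-201 and 17.6% and 17.1% on Igfbp4-203. TPM divides counts by length, so the larger TPM share of the short model follows from its length, as for Insr-202.

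Igfbp4-203 shares its middle exons with Igfbp4-201 and differs at the start. It is also far shorter (785 against 3831 nt), by more than the first exons account for. In place of the 602-base first exon with the start codon (chr11:99041244-99041845) it has a first exon of 28 bases (chr11:99043597-99043624, plus strand). That exon is printed in capitals, since it tells the models apart at the 5′ end, followed by 20 bases of the shared next exon in lower case (GENCODE M21, mm10).
Igfbp4-203: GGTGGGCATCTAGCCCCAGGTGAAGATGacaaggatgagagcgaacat

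Over coding transcripts only, Igfbp4 had 74.0 and 75.1 TPM. Igfbp4-205, a short coding model, had 46 counts in replicate 1 and 0 in replicate 2, the clearest difference between the libraries in transcript assignment within this gene. Igfbp4 stayed second in rank among the binding proteins either way.

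Igfbp5, which binds IGFs and extracellular matrix (ENSMUSG00000026185, mm10 chr1:72857932-72874884, minus strand), had 17.73 and 18.9 TPM, a mean of 18.3 ± 0.827 TPM (n = 2). Igfbp5-201 took 100% of its TPM in both libraries. Igfbp5 and Igfbp2 are neighbours on chromosome 1 that point toward each other, with 5457 bp and 0 annotated genes between their ends. Their levels were far apart despite this closeness, since Igfbp2 exceeded Igfbp5 20.0-fold in replicate 1 and 22.2-fold in replicate 2.

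Igfbp7 encodes a related protein that binds IGFs only weakly and is known in blood vessel walls (ENSMUSG00000036256, mm10 chr5:77349240-77408041, minus strand). It had 20.34 and 19.22 TPM, a mean of 19.8 ± 0.792 TPM (n = 2), from 557 and 629 counts. The intervals of the libraries overlapped. Endothelial markers summed to 100 and 101 TPM and mural markers to 58.6 and 59.2 TPM, and their part in the level of Igfbp7 was not tested.

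Igfbp3, the main IGF carrier of adult blood (ENSMUSG00000020427, mm10 chr11:7206086-7213923, minus strand), was the lowest of the 5 binding proteins. It had 6.26 TPM in replicate 1 and 4.77 TPM in replicate 2, a mean of 5.515 ± 1.05 TPM (n = 2), from 386 and 353 counts. The intervals did not overlap between the libraries (5.55 to 6.77 and 4.22 to 5.20 TPM). Its neighbour on chromosome 11 is Igfbp1, whose gene points toward it from 3539 bp away with 0 annotated genes between. Igfbp1 had 0.08 and 0.11 TPM from 3 and 5 counts, too few for a stable ratio.

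Set against Igfbp3, the other binding proteins were separated in both libraries. Igfbp5 was 2.80-fold and 3.90-fold higher, and Igfbp7 3.21-fold and 3.97-fold. Igfbp4 was 24.5-fold and 32.8-fold higher over all transcripts, and 11.7-fold and 15.4-fold over coding transcripts. Igfbp2 was 56.1-fold higher in replicate 1 and 86.5-fold in replicate 2. All 4 of these folds were larger in replicate 2, where Igfbp3 itself was lower. Of the 8 pairs of genes compared in this report, 7 were separated, and the exception was Igf1r and Igf1.

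**Figure D3:**
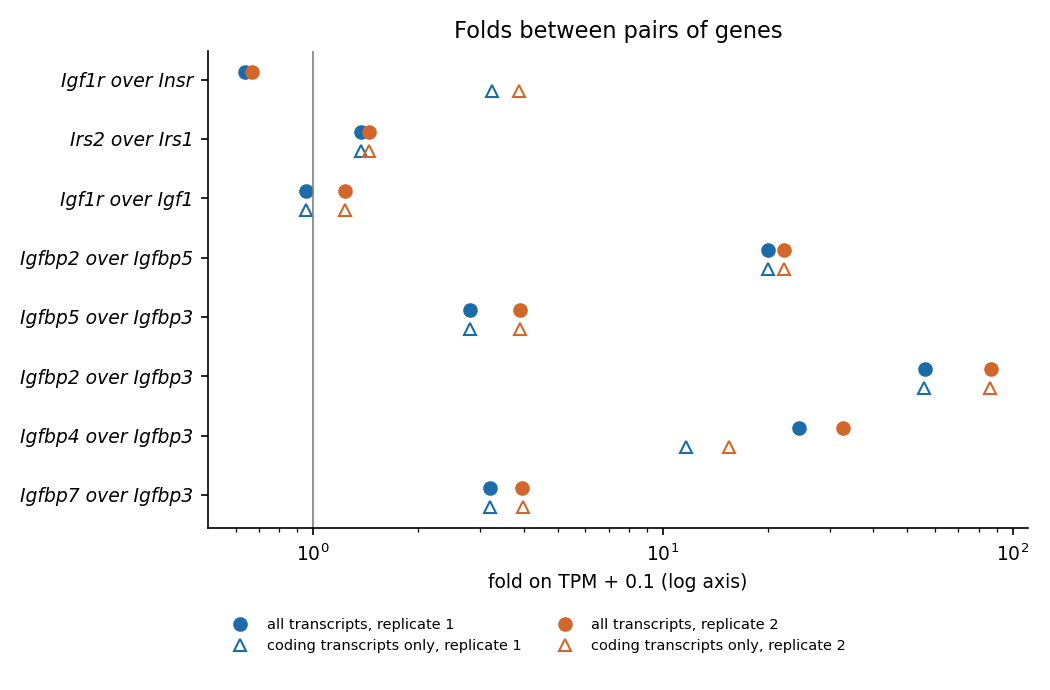
Fold between the genes of 8 pairs on TPM + 0.1 (log axis), for all transcripts (circles) and coding transcripts only (triangles), replicate 1 in blue and replicate 2 in orange; the line marks equal levels. Igf1r over Insr moves from 0.639 and 0.669 to 3.25 and 3.89, and the other pair that shifts is Igfbp4 over Igfbp3.

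Summed over Igfbp1 to Igfbp7, binding protein RNA came to 557 TPM in replicate 1 and 624 TPM in replicate 2. Igfbp2 made up 64.0% and 67.5% of it (65.8 ± 2.45%, n = 2), and Igfbp4 28.0% and 25.6% (26.8 ± 1.69%). Igfbp7 (3.36 ± 0.404%), Igfbp5 (3.10 ± 0.109%) and Igfbp3 (0.944 ± 0.254%) made up most of the rest. Igfbp6 and Igfbp1 each stayed under 0.05% of the sum. Binding protein RNA was thus carried mostly by a pair of genes, and in the same order in both libraries.

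Of the 10 genes, 7 had at least 2 transcripts in the tables, and the leading transcript was the same in both libraries for all 7, against 91.4% of all genes at 1 TPM with at least 2 transcripts. For 2 of the 7, Insr and Igfbp4, that leader was a non-coding model in both libraries. Among all protein-coding genes of this kind, 4.88% were led by a retained intron or a processed transcript in both. The 10 genes are too few to read this against the background share.

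Among the other ligand genes, Igf2, an imprinted gene for the main fetal IGF, had 93.82 and 99.48 TPM (96.7 ± 4.002 TPM, n = 2), above Igf1 in both libraries. The insulin genes Ins1 and Ins2 had 0 counts in both, which allows up to 0.0772 CPM (a count scaled to library size) in replicate 1 and 0.0653 CPM in replicate 2. Igf2r, the gene of a receptor that clears IGF2, had 10.48 and 11.67 TPM. Igfbpl1, encoding a protein similar to the binding proteins, had 42.62 and 44.27 TPM.

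Genes inside the cell were mostly present. In the RAS and MAPK arm 9 of 9 genes reached 1 TPM in both libraries, with a median of 95.7 TPM. Map2k2, a kinase gene of this arm, had 143.26 and 160.93 TPM, and the RAS gene Nras had 117.24 and 108.87 TPM. In the PI3K, AKT and mTOR arm 19 of 20 did. Its median was 21.3 TPM, and the highest gene was Rheb, the GTPase that activates mTOR (167.18 and 156.2 TPM). Of the 11 receptor substrates and adaptors, 10 did, with a median of 8.265 TPM. Both Irs1 and Irs2 lay below that median, while Grb10, an imprinted adaptor that dampens receptor signalling, led the list with 96.34 and 105.84 TPM.

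Lists of lower level were those of proteases of the binding proteins with their inhibitors, of negative regulators and of FOXO factors. Of 6 protease and inhibitor genes, 5 reached 1 TPM. Their median was 1.93 TPM, and Adamts1 was highest (7.16 and 7.43 TPM). Pappa, which encodes the protease of IGFBP4 and IGFBP5, had 2.25 and 2.13 TPM. Of 7 negative regulators 6 did. The median was 4.385 TPM, and the phosphatase gene Ptpn1 was highest (66.52 and 65.41 TPM). Of the 4 FOXO transcription factor genes, 2 did, and Foxo3 was highest (3.49 and 3.05 TPM). Over the 64 pathway genes outside the 10, 52 reached 1 TPM and the median was 12.3 TPM.

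**Figure D4:**
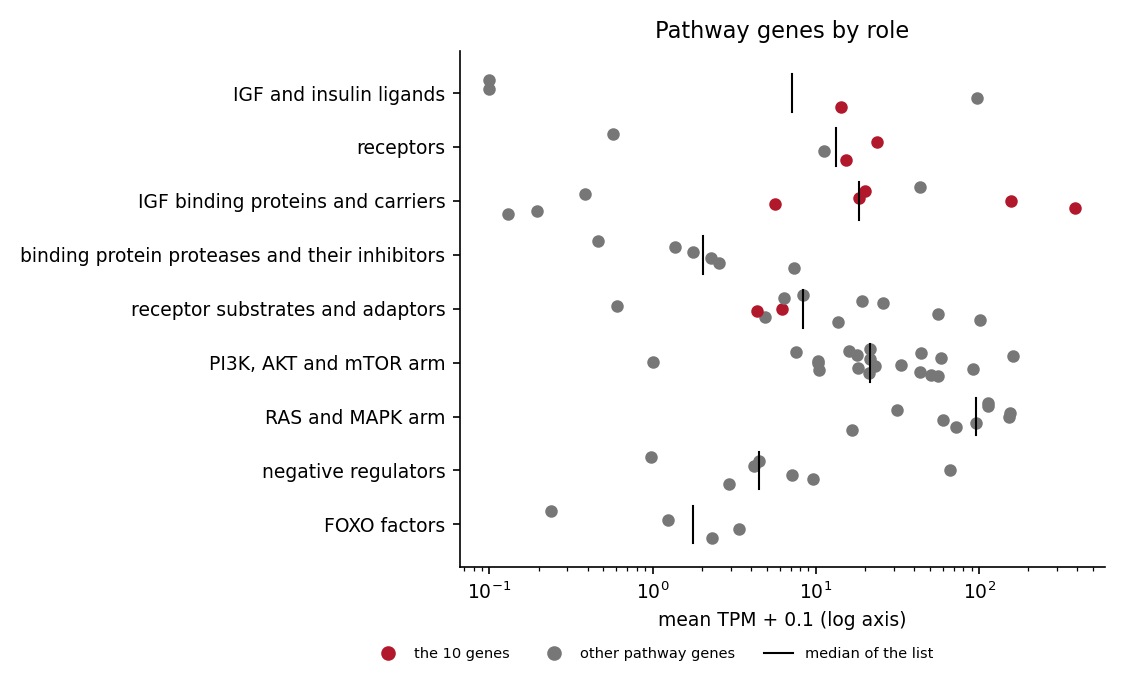
Mean TPM + 0.1 over the 2 libraries (log axis) of 74 pathway genes by role, with the 10 genes of the report in red, the other 64 in grey and list medians as vertical lines. Igfbp2 and Igfbp4 are the highest of the binding protein list, and Irs1 and Irs2 lie left of the median of their list.

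Replicate 2 was compared with replicate 1 gene by gene, which compares these pools and libraries and no conditions. By the exact binomial test used, at an adjusted p under 0.05 and at least a 2-fold difference, 0 of the 10 genes were called, against 2.80% of the 17148 genes tested. None of the 59 tested pathway genes outside the 10 was called either. With a summed count of at least 20, 481 genes were called, and with at least 100 the number was 82. The smallest summed count among the 10 was 739, so 2.80% is not the share at their depth. Without the fold minimum 7 of the 10 passed, against 34.9% of genes tested, and against 45.3% of genes whose summed count was 700 or more, a depth that all 10 reach. At an unadjusted p under 0.05 there were also 7 of 10. In edgeR's exact test with an assumed coefficient of variation of 0.1, also without a fold minimum, there were 0 of 10. Neither count is set against a share of all genes tested, so neither is read as a result about the 10 genes. The differences were small: the median absolute log2 ratio was 0.14 for the 10 genes and 0.14 for all genes tested, and 0.10 for those at 700 counts or more.

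The 5 genes higher in replicate 2 were Irs1, Irs2, Igfbp2, Igfbp4 and Igfbp5 (18.0% of tested genes passed in that direction). For Igfbp2 the log2 ratio of replicate 2 to replicate 1 was 0.25 (adjusted p = 9.7e-44, exact binomial test with Benjamini-Hochberg adjustment). For Irs2 it was 0.27 (adjusted p = 0.00275, same exact test). The ratios of Irs1 (0.19), Igfbp4 (0.10) and Igfbp5 (0.10) were smaller. Igfbp2 thus had the smallest p of the 10 with a 1.19-fold difference, at the largest count. Neural progenitor markers summed to 2460 TPM in replicate 1 and 2526 TPM in replicate 2, a difference carried mostly by Hes5 (347.18 and 410.89 TPM) and Nes (52.34 and 63.74 TPM). The other 3 of the 5 were nearly level, with Vim at 1176.51 and 1174.55 TPM, Fabp7 at 850.12 and 843.15 TPM and Sox2 at 33.49 and 33.21 TPM. The median log2 ratio of the 5 markers was 0.01, and their part in the Igfbp2 difference was not tested.

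The 2 genes lower in replicate 2 were Igf1 and Igfbp3 (17.0% of tested genes passed in that direction). The log2 ratio was -0.24 for Igf1 (adjusted p = 6.5e-07, exact binomial test with Benjamini-Hochberg adjustment). For Igfbp3 it was -0.38 (adjusted p = 0.00224, same exact test), the largest difference among the 10. Mesenchymal and meningeal markers summed to 715 TPM in replicate 1 and 683 TPM in replicate 2, with all 7 above 1 TPM in both. Most of that difference lay in Col3a1 (336.53 and 313.56 TPM) and Lum (133.65 and 119.32 TPM), while Col1a1 (97.79 and 104.83 TPM) and Col1a2 (109.69 and 111.23 TPM) went the other way. The median log2 ratio of the 7 was -0.06, and their part in the differences of Igf1 and Igfbp3 was not tested. Igf1r (0.08), Insr (-0.07) and Igfbp7 (-0.07) did not pass. The deposited intervals themselves did not overlap between the libraries for 4 of the 10 genes, Igf1, Irs2, Igfbp2 and Igfbp3, against 22.4% of genes at 1 TPM in both. Interval width depends on counts, and no such share was taken at the depth of the 10 genes. The 4 of 10 is therefore not read as a result about them.

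**Figure D5:**
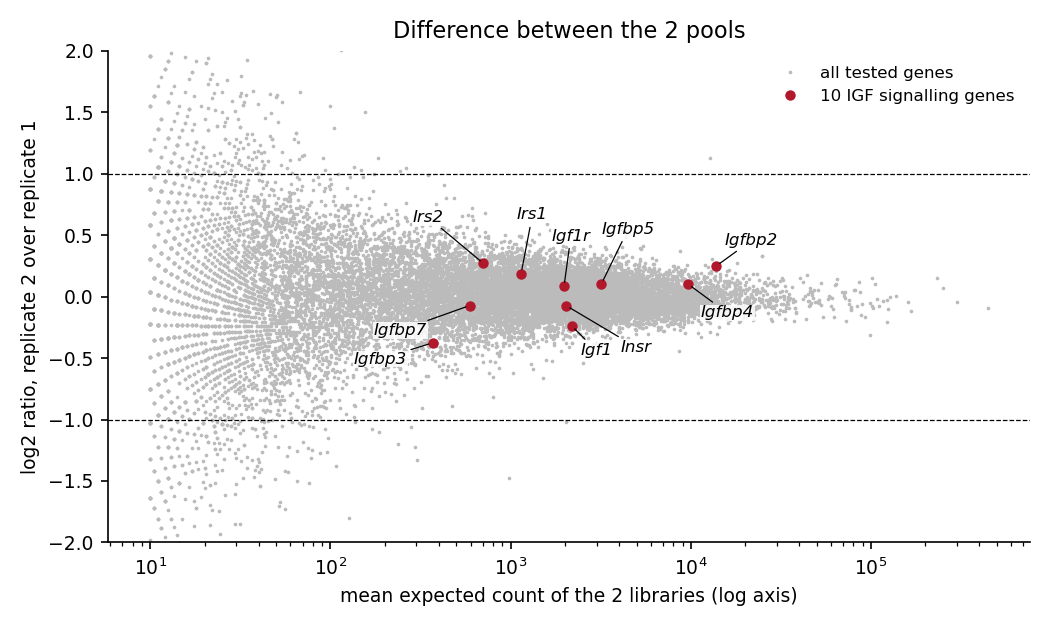
Log2 ratio of replicate 2 to replicate 1 against the mean expected count (log axis) for all tested genes (grey, those within ± 2 shown) and the 10 genes (red); dashed lines mark a 2-fold difference. All 10 lie between the dashed lines, from -0.38 for Igfbp3 to 0.27 for Irs2.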

How the data were processed

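Total RNA-seq of embryonic midbrain was analysed from 2 libraries of 1 group. Per the submitters' processing notes the assembly was mm10 and the annotation M4. No source used here gives the aligner, the quantifier, their versions or the use of strand. Expected counts (estimated read counts), TPM and FPKM per gene and per transcript were deposited, per the file headers. The TPM interval bounds and the posterior SD of counts, also deposited, were treated as signal. Each transcript's share of its gene was deposited as a percent. TPM was scaled over all rows, and spike-ins took 15.2% and 14.8% of it.

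Symbols and coordinates came from GENCODE M21 on the same assembly, and 42462 genes matched. The 96 spike-in rows and 26249 rows with other names entered neither the gene totals nor the tests. Expected counts were rounded to whole numbers, and genes whose summed count was at least 20 entered a two-sided exact binomial test (the doubled smaller tail) against library sizes scaled by TMM (edgeR 4.0.16, R 4.3.3), with Benjamini-Hochberg adjustment over all of them. Log2 ratios used a prior count of 1. Transcripts typed protein_coding in the annotation were called coding. Coding levels are sums of the deposited TPM of these transcripts, and reads on other models were not assigned anew. Python 3.11.15, numpy 2.4.6, pandas 2.3.3 and matplotlib 3.10.9 were used.

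Over the 38884247 and 45975100 gene counts, 3 counts correspond to 0.0772 and 0.0653 CPM. Smart-seq, the protocol cited, amplifies cDNA. Reads are therefore not independent molecules, and intervals and limits cover counting error only. The difference between the libraries exceeded sampling noise (chi-square of 10.3 per degree of freedom), so the p-values measure the difference between these libraries. Counts simulated for this comparison held sampling noise only, with changed genes drawn from those with a summed count of at least 100. In them (17178 genes tested) 99% of 100 genes changed 3-fold and 100% of 100 changed 8-fold were called, with 6 false calls. These rates do not carry over to the real libraries, which differed by more than sampling noise.

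The 10 genes, although picked by symbol without a threshold on their values, and the pathway and marker lists were chosen with earlier results of these data known. Named were all 10 genes, up to 3 of the highest genes of each pathway list, pathway genes past the test, and cell type markers, and 1 such gene is not reported here. Igfbp1 and Igfbp6 were added after their values were seen. Likeness of pattern cannot be measured with 2 libraries of 1 group. Alternatives were scaling by DESeq2 1.42.0 size factors, by totals or by spike-ins, other thresholds, filters, pseudocounts and units, leaving out each replicate, and coding transcripts only.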

Additional observations from a re-analysis of the deposited data

How the results depend on the processing

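Of the values that answer a comparison, 74 kept direction and side of the threshold under an alternative, 3 moved, 2 reversed and 1 became stronger. Some of the 74 could not differ. Separation of pairs was read from the same deposited TPM intervals under every unit and pseudocount. FPKM is proportional to TPM within a library, so folds on FPKM differ only through the pseudocount and rounding. The 74 is therefore not a measure of robustness. The number of genes called between the libraries was 481, and 82 with a summed count of at least 100, 5990 without a fold minimum and 155 in edgeR's exact test with an assumed coefficient of variation of 0.1. The causes were not tested. It lay between 473 and 651 under the other scalings and without a filter, and 0 of the 10 genes were called at 2-fold in the exact binomial test. The fold of Igf1r over Insr turned from 0.654 to 3.55 over coding transcripts only, which by construction leaves out Insr-202. Reads assigned to Insr-202 in exons shared with Insr-201 are left out with it. The fold of Igf1r over Igf1 was 1.08, and 1.23 without replicate 1, where the intervals separated, and 0.954 without replicate 2, where the direction reversed. Igfbp4 over Igfbp3 kept its direction, moving from 28.4 to 13.4 over coding transcripts. Leaving out either replicate gave 24.5 to 32.8 for that fold, 56.1 to 86.5 for Igfbp2 over Igfbp3, 2.80 to 3.90 for Igfbp5 over Igfbp3, and 7 to 8 separated pairs. At 5 TPM in both libraries 8 of the 10 genes were detected. With 1 library left, the library comparison and the shared leading transcript have no value. No paired analysis was possible because there is 1 group. For single genes, 88 values stayed within their spread or call and 12 moved, 9 of them by rescaling TPM without spike-ins, which raises every gene alike. The short Igf1 models rest on few counts.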
